A study of Schizosaccharomyces pombe with 6 samples.

Results

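The loci described here are the genes and pseudogenes of the fission yeast *Schizosaccharomyces pombe* whose systematic names begin with 12 cosmid prefixes assigned to the chromosome ends: SPAC212, SPAC977, SPAC186, SPAC750, SPAC869, SPBC1348, SPBCPT2R1, SPBPB2B2, SPBPB10D8, SPBPB21E7, SPBPB7E8 and SPBPB8B6. The rule took 122 of the 6988 loci in the count table, 109 of them protein-coding and 13 pseudogenes, and it used no measured value. Poly(A)+ RNA had been sequenced from 3 biological replicates of each of 2 strains of mating type h-, the parental wild type (AS478) and *siw14*∆ (AS2302), in which *siw14* is replaced by the HygMX marker. Siw14 is a cysteinyl-phosphatase-type enzyme that removes phosphates from inositol pyrophosphates. All cultures grew in the rich medium YES at 30 °C and were harvested in mid-log phase, and each genotype was represented by 1 strain. Values per library are listed in the order of the replicate numbers. Counts of the *siw14* RNA were 2014, 2414 and 2377 in wild type and 13, 12 and 14 in *siw14*∆, so each library matched its label. Library totals over genes ran from 12875286 to 14583056 counts.

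Fission yeast chromosome ends carry arrays of duplicated genes that are kept at low expression in growing cells. Telomere-bound shelterin and the RNA interference pathway recruit the histone H3 lysine 9 methyltransferase Clr4, the mark is bound by the HP1 protein Swi6, and the deacetylases Clr3 and Sir2 remove histone acetyl groups over the same chromatin. Many subtelomeric genes encode transporters, cell surface glycoproteins and enzymes of nutrient use, and some of them are induced when nitrogen or glucose runs out. The questions asked of the counts were how low these loci stood in wild type and whether their level differed in *siw14*∆.

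Gene order in the ASM294v3 annotation checked the label. Of the 122 loci, 120 formed 4 unbroken runs that started at a chromosome end: 30 at the left end of chromosome I, 28 at its right end, 36 at the left end of chromosome II and 26 at its right end. The other 2, SPBPB7E8.01 and SPBPB7E8.02, were the genes numbered 430 and 429 from the nearest end and lie in the interior of chromosome II, so the subtelomeric label does not hold for them. The main counts and medians are given with and without them.

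Many of these loci are copies of each other, and this bears on what a count table can show. For each locus the share of its 51-base windows, the read length, that occur once in the ASM294v3 genome was computed. This share fell into 2 classes with little between: 65 loci had under 50% of their windows unique and are called repeated, and 57 had more and are called mostly unique. The loci nearest the boundary were SPAC212.08c at 48.5% and SPAC750.01 at 67.5%. Of the repeated loci, 44 had a copy at 99% identity or more over at least 90% of their length. A block of 9 SPAC977 genes at the left end of chromosome I, which includes *ftm1*, *ftm2*, *pfl6*, *ayr2* and *plb4*, had its closest copies among SPBC1348 genes at the left end of chromosome II, at 98.6% to 100% identity. Reads that match several copies equally cannot be assigned to 1 place, so a count at or near 0 in a repeated locus is no reliable measure of its RNA. The share was scored on single windows, while the libraries were read as pairs. SPBPB10D8.07c, with 0% of its windows unique, had 9 to 20 counts per library. How far the pairs placed such reads was not tested.

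In wild type, the subtelomeric loci stood far below the other genes. Their levels are given as RPKM, counts per kilobase of annotated exon, scaled to the size of each library. The median over the 109 protein-coding members was 0.245, 0.244 and 0.206 RPKM in the wild-type libraries, against 28.4, 30.0 and 29.2 RPKM over all 5107 protein-coding loci. Of the members, 73 (67.0%) had a mean below 1 RPKM, against 5.07% of all protein-coding loci. The spread between the replicate medians was small beside this gap.

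The gap was also present at the mostly unique loci. The 51 mostly unique protein-coding members had a median of 1.73 RPKM, and 23 of them (45.1%) were below 1 RPKM, against 3.75% of all mostly unique protein-coding loci. The 58 repeated ones had a median of 0.0816 RPKM. Only 8 of the 109 protein-coding members reached the median of all protein-coding loci. Without the 2 interior genes, 73 of 107 (68.2%) were below 1 RPKM at a median of 0.316 RPKM, the 49 mostly unique members had a median of 1.40 RPKM with 23 (46.9%) below 1 RPKM, and 7 members reached the protein-coding median.

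Every member was accounted for by class. In all 6 libraries 24 loci had 0 counts, a further 53 had some counts but were removed by the filter on low counts, and 45 were kept. This is 36.9% of the members, against 82.6% of all loci. Of the 45 kept, 23 had a mean below 100 normalized counts in both strains and 22 reached 100 in at least one. The filter kept 9 of the 65 repeated and 36 of the 57 mostly unique loci.

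Of the 24 loci at 0, 21 were repeated: SPAC212.05c, SPAC750.02c, SPAC750.03c, *ftm3*, SPAC750.07c, SPAC750.08c, SPAC977.03, *ayr2*, *ftm6*, SPBC1348.04, SPBC1348.06c, SPBC1348.09, SPBC1348.15, SPBCPT2R1.05c, SPBCPT2R1.06c, SPBCPT2R1.10, SPBPB10D8.05c, SPBPB10D8.06c, SPBPB2B2.15, SPBPB2B2.16c and *ftm7*. The mostly unique ones were SPAC186.07c, SPBPB21E7.05 and SPBPB21E7.10. SPAC186.07c and SPBPB21E7.10 share 40.9% and 95.2% of their span with a gene of the opposite strand. Their 0 is uncertain, since the strand setting of the counting was not given. A count of 0 among the 82468804 counts of the 6 libraries allows up to 3 counts, or 0.0364 CPM (counts scaled to library size without length), for a locus whose reads can be placed.

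**Figure D1:**
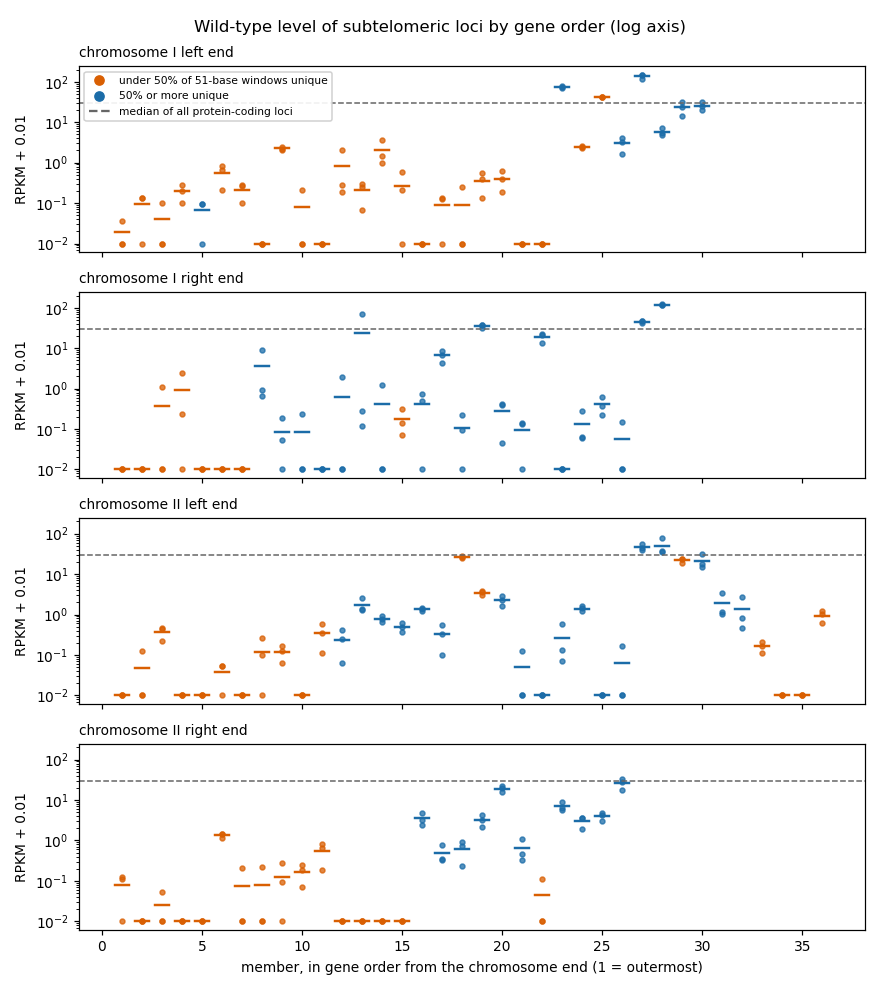
Wild-type level of each of the 120 loci at the 4 chromosome ends, in RPKM plus 0.01 on a log axis, against gene order from the end; points are the 3 wild-type libraries, dashes their mean, and the broken line is the median of all protein-coding loci, 29.1 RPKM. Repeated loci are orange and mostly unique loci blue, and the outermost loci lie mostly below 1 RPKM. The higher levels lie farther in, apart from 1 library at the 13th locus of the right end of chromosome I.

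Within the runs, the innermost loci stood higher than the outermost, here compared as the first and the last 10 in gene order. At the left end of chromosome I the 10 outermost loci had a median of 0.0757 RPKM in wild type and the 10 innermost 14.7 RPKM. At its right end these medians were 0.0365 and 0.333 RPKM, and 6 of the 10 innermost loci there were below 1 RPKM. At the left end of chromosome II they were 0.0144 and 1.61 RPKM, and at its right end 0.0672 and 3.11 RPKM.

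The outermost loci were also the repeated ones, with 9, 7, 10 and 10 of 10 repeated at the 4 ends in the same order, against 4, 0, 5 and 1 of the 10 innermost. Only 4 of the 40 outermost loci could therefore be read by mostly unique sequence, and the part of read placement in the difference was not tested. Repeated loci were not limited to the outer stretch. At the left end of chromosome II the 4 innermost members, SPBPB10D8.04c to SPBPB10D8.07c, are near-identical transporter genes.

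From the left end of chromosome I inward, a mean of 100 normalized counts in either strain was first reached at *nhe1*, the 23rd gene. At the left end of chromosome II it was first reached at the asparaginase gene SPBPB8B6.05c, the 18th. At the right end of that chromosome it was first reached at the galactokinase gene *gal1*, the 16th. *gal1* reached it in *siw14*∆ only, and its wild-type level was 3.51 RPKM. At the right end of chromosome I the first gene to reach it was *gdt1*, the 13th, through 1 library described below. *gdt1* was removed by the filter, and the first locus there that was kept and reached this mean was *pfl9*, the 17th. The outermost locus kept at any level was SPAC750.01, the 8th. Inward of *pfl9*, *yhb1*, *sul2*, *put4* and *cat1* stood among 7 loci below 1 RPKM.

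The 15 protein-coding genes next inward at each end, 60 in all, had a median wild-type level of 13.5 RPKM, and 8 of them were below 1 RPKM. By end, their medians were 6.02 RPKM at the left and 23.4 at the right end of chromosome I, and 9.84 at the left and 13.3 at the right end of chromosome II. These exceed the medians of the 10 innermost members at 3 ends but not at the left end of chromosome I.

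The duplicated families that define the outermost regions were almost silent in the counts. The RecQ-type helicase genes *tlh1* and *tlh2*, the outermost genes at the left end of chromosome I and the right end of chromosome II, are 99.98% identical and have 0.909% and 6.77% of their windows unique. *tlh1* had 0, 2 and 0 counts in wild type and 0 in each *siw14*∆ library. *tlh2* had 0, 9 and 8 counts in wild type and 2, 2 and 0 in *siw14*∆. The remaining helicase-like locus, SPAC212.06c, had 1, 3 and 3 counts in wild type and 5, 4 and 4 in *siw14*∆.

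None of the 8 transmembrane helix (*ftm*) loci was kept. *ftm3*, *ftm6* and *ftm7* were at 0, and the highest sum, 49 counts, belonged to *ftm4* and came almost wholly from 1 library. *ftm1* had 4, 5 and 1 counts in wild type and 6, 7 and 1 in *siw14*∆, and *ftm5* had 8, 9 and 4 against 5, 2 and 4. The libraries of the 2 strains overlapped for both. The phospholipase gene *plb4* had 1 count in all, while its 100% identical copy SPBC1348.10c had 9, 3 and 16 in wild type and 9 in each *siw14*∆ library, and reads shared by the pair cannot be assigned to either. Of the glycoprotein genes, *pfl6* had 6, 10 and 3 counts in wild type and 5, 3 and 3 in *siw14*∆.

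Some genes of mostly unique sequence were also near 0. Of these, *mel1*, *pcm2*, *hry1* and *fah1* share 83.8%, 78.5%, 100% and 100% of their span with an ASM294v3 gene of the opposite strand. SPAC869.01 and *pdc102* share 65.4% and 100%. The strand setting of the counting was not given in the sources used here, so these low counts are uncertain. The melibiase gene *mel1* had 5, 1 and 1 counts in wild type and 3, 3 and 5 in *siw14*∆. The protein-repair methyltransferase gene *pcm2* had 8, 3 and 5 against 7, 15 and 10, and *hry1*, which encodes a cation-binding domain protein, had 1 count in all 6 libraries. The acetamidase gene *fah1* had 11, 2 and 7 counts in wild type and 5, 7 and 4 in *siw14*∆. The libraries of the 2 strains overlapped for each of these 4. The amidase gene SPAC869.01 had 2, 0 and 5 counts in wild type and 11, 6 and 10 in *siw14*∆, which do not overlap. Among the 77 members removed by the filter, it and the repeated locus SPAC212.06c had every *siw14*∆ library above every wild-type library, and no member had the reverse. These loci were not in the test. The share of such loci among all loci removed by the filter was not computed, so no change is read from these low counts. The pyruvate decarboxylase gene *pdc102* had at most 4 counts in any library.

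The well-expressed members lay mostly at the inner edge of the runs. The highest at a chromosome end was SPAC977.14c, an aldo-keto reductase gene with 71.2% of its windows unique, at 138 ± 16.1 RPKM in wild type (SD, n = 3). *cat1*, which encodes a plasma membrane arginine and lysine transporter and is the innermost member at the right end of chromosome I, was at 119 ± 4.01 RPKM (SD, n = 3). *nhe1*, the sodium ion/proton antiporter gene, was at 75.3 ± 3.29 RPKM (SD, n = 3). These 3 lay above the median of all protein-coding loci in every wild-type library.

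Next came SPBPB21E7.08, a pseudogene, at 49.6 RPKM, the phenazine biosynthesis family gene *aes1* at 46.8, the proline transporter gene *put4* at 45.3, the asparaginase gene SPAC977.12 at 41.6 and the nitric oxide dioxygenase gene *yhb1* at 35.9 RPKM. A further 6 end members had means from 21.9 to 26.3 RPKM: SPBPB8B6.05c, the amino-acid permease gene *nrg1*, the membrane channel gene SPAC977.17, *gdt1*, the dihydroxyacetone kinase gene *dak2* and SPBPB21E7.09. The interior gene SPBPB7E8.01 exceeded all of these at 309 ± 109 RPKM (SD, n = 3). The 3 asparaginase genes among them have 26.7% to 41.8% of their windows unique, so their levels per total exon length are uncertain.

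A stretch at the right end of chromosome I differed in 1 library. The gene *gdt1*, which encodes a protein of the GDT1 family of membrane cation transporters, had 2, 1391 and 5 counts in wild type and 3, 1 and 4 in *siw14*∆. In RPKM, wild-type replicate 2 was at 71.9 and the other wild-type libraries at 0.110 and 0.262. This 1 library thus carried nearly all reads of the locus, and the mean of 24.1 ± 41.4 RPKM (SD, n = 3) describes none of the libraries.

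The same library was high at loci around it. SPAC750.01, a second aldo-keto reductase gene, had 9, 135 and 13 counts in wild type and 11, 3 and 10 in *siw14*∆. *ftm4* had 0, 45 and 4 against 0 throughout, and SPAC186.06, an isomerase gene, had 0, 25 and 0 against 1, 0 and 0. SPAC186.04c and SPAC750.06c had 17 and 12 counts in wild-type replicate 2 and at most 2 in any other library. Wild-type replicate 2 was the highest library at each of these 6 loci.

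By a criterion chosen after these counts were seen, at least 10 counts and 5 times every other library, 7 of 6988 loci stood out in a single library. All 7 did so in wild-type replicate 2, 6 were the members just named, and the seventh was the noncoding RNA gene *prl61*. It lies in the same stretch and overlaps 40.9% of SPAC186.07c on the opposite strand. None of the other 5 libraries had such a locus. In gene order the 6 members ran from the 3rd to the 14th at the right end of chromosome I, but the stretch was not high throughout. It also held *pdc102* and SPAC186.08c, with 4 and 3 counts in wild-type replicate 2 and at most 1 in the others. *ftm3*, SPAC750.03c, SPAC750.02c and SPAC186.07c, within the same stretch, had no count in any library.

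The genes just inward went the other way. SPAC186.02c, a hydroxyacid dehydrogenase gene, had 10, 0 and 7 counts in wild type and 16, 17 and 20 in *siw14*∆. *pfl9* had 135, 73 and 116 counts in wild type, lowest in replicate 2, and 208, 251 and 181 in *siw14*∆. Bulk RNA cannot tell a few cells with much of an RNA from many cells with little, here or for any level below, and the share of cells carrying the *gdt1* RNA was not measured.

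**Figure D2:**
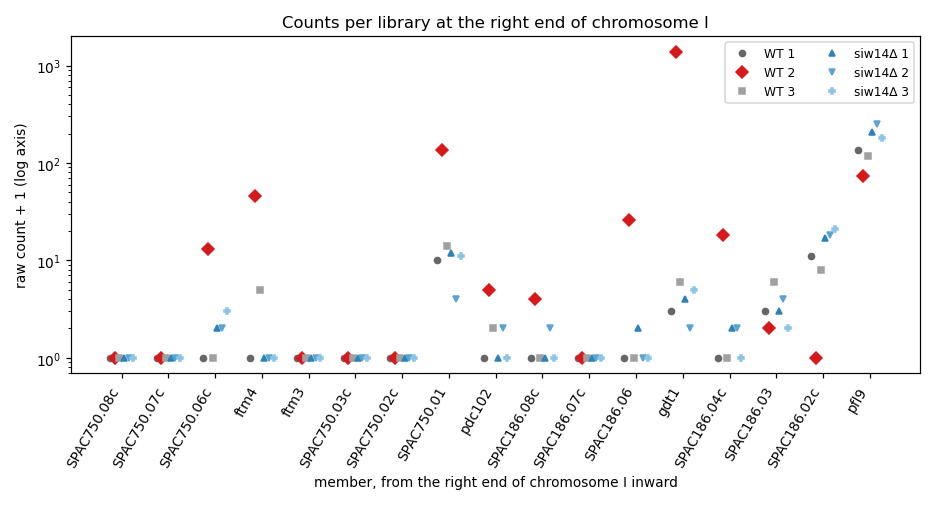
Raw counts plus 1, on a log axis, of the 17 outermost loci at the right end of chromosome I in each of the 6 libraries, in gene order from the end inward. Wild-type replicate 2 (red diamonds) lies above every other library at 6 named loci, reaching 1391 counts at *gdt1*, and is the lowest at *pfl9*.

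Wild-type replicate 2 also differed at the left end of chromosome II. The cysteine transporter gene SPBPB10D8.01 had 577, 1013 and 488 normalized counts in wild type and 587, 501 and 618 in *siw14*∆. Its neighbours SPBPB10D8.02c, an arylsulfatase gene, and the pseudogene SPBPB10D8.03 had 109 and 49.4 normalized counts in that library and at most 54.6 and 23.3 in the other 5. The pseudogene SPBPB21E7.08 had 493, 1076 and 526 in wild type and 631, 878 and 956 in *siw14*∆. Its highest library was again wild-type replicate 2, although the *siw14*∆ libraries spanned much of the same range.

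As a sum, the 77 members removed by the filter held 122, 1595 and 121 counts in wild type and 117, 113 and 97 in *siw14*∆. Scaled by library totals these were 8.42, 117 and 9.05 CPM against 8.67, 7.75 and 7.53 CPM. The strains overlap on this scale, while with TMM scaling the *siw14*∆ sums, 98.2 to 108 normalized counts, lay below the lowest wild-type sum of 126. The 21 mostly unique loci among them held 45, 1457 and 48 counts against 50, 47 and 45. The filter uses the same libraries and removes a locus that does not reach its minimum in 3 of them, so these sums are a description and cannot show that no silent locus rose. The repeated members as a whole gave 1828, 1979 and 1801 normalized counts in wild type and 2151, 2023 and 2019 in *siw14*∆, which do not overlap either, and most of this sum came from the asparaginase genes described below.

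Among the 45 members kept, as many were called higher as lower, while 19 had a positive and 26 a negative log2 fold change. The test was edgeR's quasi-likelihood test over all 5774 loci kept, with Benjamini-Hochberg adjustment over all of them. In *siw14*∆, 10 members passed an adjusted p of 0.05, 5 higher and 5 lower. This is 22.2% of the 45, against 21.7% called of all loci. The same test called 16.7% of all loci higher and 4.99% lower. The libraries of the 2 strains did not overlap for 17 of the 45, or 37.8%, against 46.9% of all loci kept. The median log2 fold change of the members was -0.15, against 0.01 over all loci, and without the 2 interior genes it was also -0.15. The share called in both directions together was thus near the background. The even split of the members was unlike the split of all loci, and this difference was not tested. The split into higher and lower moved with the scaling. With library totals it was 6 higher and 3 lower among members and 1368 and 31 among all loci. With DESeq2 it was 5 and 5 among members and 1025 and 712 among all loci, and after removal of a GC content trend 3 and 11 among members and 836 and 940 among all loci.

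None of the 45 members tested met the criteria of the study methods, which ask for a change of at least 2-fold, an adjusted p of at most 0.05 and a mean of 100 normalized counts in one of the strains. Over all loci 0.104% passed these criteria higher and 0.208% lower. With a filter of 1 count in any library, 3 further members were called lower by edgeR, *gdt1* (adjusted p = 0.0292), SPAC750.01 (adjusted p = 0.0472) and *ftm4* (adjusted p = 0.0455). All 3 rest on wild-type replicate 2, and *gdt1*, at means of 480.0 and 2.57 normalized counts, would meet the study criteria in that edgeR fit. By DESeq2, the tool of the study, which fitted 98 members, 0 met them higher and 0 lower. By edgeR without adjustment 14 of the 45 had a p under 0.05, or 31.1%, against 41.1% of all loci kept. The 95% interval of the change lay within 2-fold either way for 25 of the 45, and for 18 of the 22 with 100 or more normalized counts. The intervals of the remaining 20 reached past 2-fold.

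**Figure D3:**
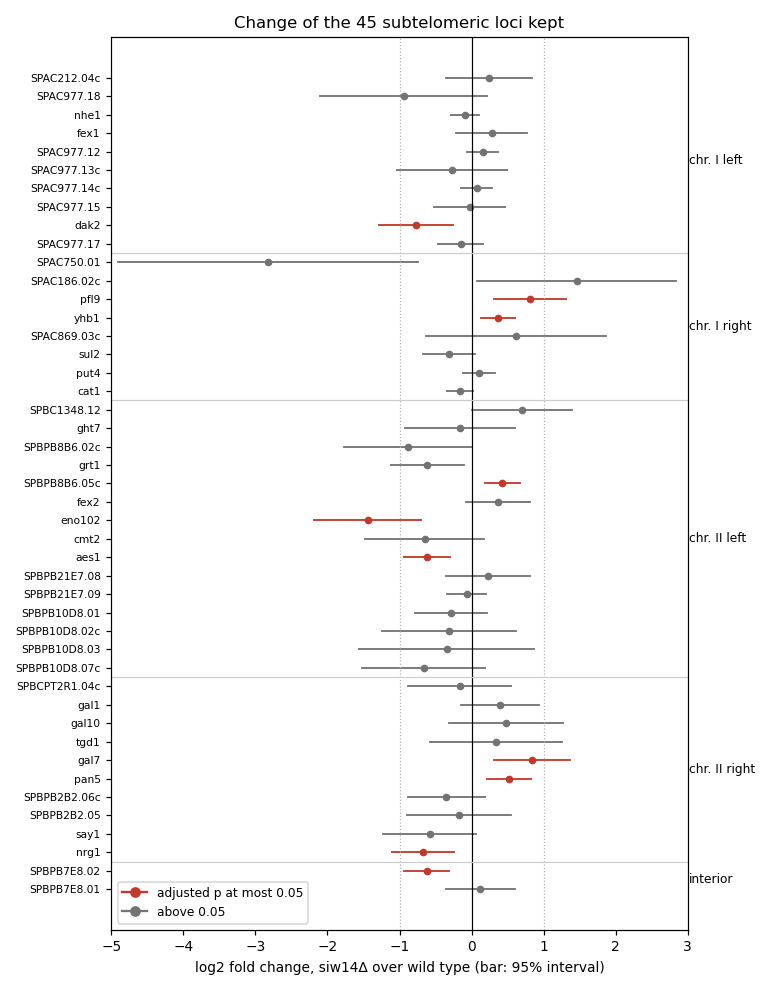
Change in *siw14*∆ against wild type, on the log2 scale, for the 45 members kept, with 95% intervals, grouped by chromosome end and ordered from the end inward; red marks an adjusted p of at most 0.05 by edgeR's quasi-likelihood test, and dotted lines mark 2-fold. The 10 red loci comprise 5 on each side of 0, and the widest interval is that of SPAC750.01.

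By chromosome end, the left end of chromosome I had 10 members kept, of which none rose and 1 fell, with a median log2 fold change of -0.06. At its right end 8 were kept and 2 rose, with a median of 0.24. The left end of chromosome II had 15 kept, 1 that rose, 2 that fell and a median of -0.31, and the right end 10 kept, 2 that rose, 1 that fell and a median of 0.09. No end was tested against another. Of the 60 genes next inward, 56 were kept, 3 rose and 3 fell. Beside all these counts, the same test called 16.7% of all loci kept higher and 4.99% lower.

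The calls depended on all 3 *siw14*∆ libraries. Without *siw14*∆ replicate 1, 2 or 3 in turn, edgeR's quasi-likelihood test called 0 members in either direction, and 12, 12 and 13 members had an unadjusted p under 0.05. Of all loci these fits called 378, 0 and 0 higher and 1, 1 and 1 lower, so the loss of calls was not particular to the members. Shares of all loci with an unadjusted p under 0.05 were not computed for these fits. Without wild-type replicate 1 the test called 5 members higher and 3 lower, against 785 and 48 of all loci. Without wild-type replicate 2 it called 7 members higher and 6 lower, against 1204 and 717 of all loci. Without wild-type replicate 3 it called 2 members higher and 4 lower, against 640 and 44 of all loci. With a trend of each library over abundance taken out, 0 members and 1 of all loci passed, while 16 members had an unadjusted p under 0.05. In that fit the 5 falls were larger, from -0.68 for SPBPB7E8.02 to -1.61 for *eno102* on the log2 scale, at adjusted p of 0.0582 to 0.0668 by edgeR. The log2 fold changes of the rises were 0.46 for *pfl9*, 0.60 for *gal7*, 0.27 for *pan5*, 0.21 for SPBPB8B6.05c and 0.38 for *yhb1*, at adjusted p of 0.0716 to 0.257 by edgeR. DESeq2 with all 6 libraries called 5 higher and 5 lower. Of the 10 called members, 8 share 12.7% to 93.5% of their span with an ASM294v3 gene of the opposite strand, while *gal7* and *pfl9* share none.

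Among the genes of sugar use, all 3 kept members had higher means in *siw14*∆ and 1 rose. For this and the following gene groups, the same test called 16.7% of all loci kept higher and 4.99% lower. No group was tested against that share. These genes form a cluster at the right end of chromosome II that encodes the enzymes of galactose breakdown, which laboratory strains of fission yeast leave silent. The uridylyltransferase gene *gal7* had 42.8, 84.4 and 64.7 normalized counts in wild type and 109, 122 and 113 in *siw14*∆, so the strains did not overlap. Its log2 fold change was 0.84 (standard error 0.241, adjusted p = 0.0362 by edgeR).

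The galactokinase gene *gal1* had 85.6, 66.9 and 133 normalized counts in wild type and 141, 111 and 123 in *siw14*∆. Its strains overlapped, and its log2 fold change of 0.40 did not pass (standard error 0.245, adjusted p = 0.242 by edgeR). The epimerase gene *gal10* was at 22.8 ± 11.9 and 31.9 ± 1.69 normalized counts (SD, n = 3 each) and did not pass either, with a log2 fold change of 0.48 (adjusted p = 0.333 by edgeR). *gal10* shares 93.7% of its span with *tgd1* on the opposite strand, and both loci are uncertain, since the strand setting of the counting was not given in the sources used here. Without wild-type replicate 2 the log2 fold change of *gal7* was 1.08 and those of *gal1* and *gal10* were 0.19 and 0.26. Leaving out wild-type replicate 3 gave 0.88, 0.75 and 1.03, and none of the 3 passed (adjusted p = 0.0648, 0.0544 and 0.0580 by edgeR).

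The cell surface glycoprotein gene *pfl9*, of the DIPSY family whose members act in cell adhesion, was the one kept member of 5 such loci, and it rose. Its normalized counts were 148, 75.2 and 121 in wild type and 191, 229 and 183 in *siw14*∆. The lowest *siw14*∆ library was above the highest wild-type library. The log2 fold change was 0.81 (standard error 0.228, adjusted p = 0.0346 by edgeR). Without wild-type replicate 2, which was low here and high at *gdt1*, it was 0.58 (adjusted p = 0.0356 by edgeR), and without wild-type replicate 3 it was 0.89 and no longer passed (adjusted p = 0.0559 by edgeR).

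The asparaginase and amide hydrolase genes, which release ammonia from amides, had 4 of 8 members kept, of which 1 rose. SPBPB8B6.05c had 420.2, 467 and 461 normalized counts in wild type and 646, 576 and 593 in *siw14*∆, with no overlap. Its log2 fold change was 0.43 (standard error 0.113, adjusted p = 0.0303 by edgeR), and without wild-type replicate 3 it was 0.48 and did not pass (adjusted p = 0.0522 by edgeR).

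Its copy SPAC977.12, at 95.3% identity, had 714, 716 and 704 in wild type and 791, 809.8 and 773 in *siw14*∆. These libraries did not overlap, but the log2 fold change of 0.15 did not pass (adjusted p = 0.246 by edgeR). SPBPB21E7.09, also an asparaginase gene, was at 399.5 ± 42.4 and 381 ± 16.1 normalized counts (SD, n = 3 each), and the strains overlapped. The rule by which shared reads were divided between these copies was not given in the sources used here.

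Dehydrogenases, reductases and other enzymes of carbon metabolism moved in both directions. Of 15 members 8 were kept, 2 rose and 2 fell. *pan5*, which encodes a 2-dehydropantoate 2-reductase of pantothenate synthesis, had 312, 407 and 447 normalized counts in wild type and 561, 556 and 556 in *siw14*∆. Every *siw14*∆ library was above every wild-type library, and the log2 fold change was 0.52 (standard error 0.141, adjusted p = 0.0323 by edgeR). *yhb1*, the flavohemoglobin gene that detoxifies nitric oxide, had 1022, 889.8 and 1047 in wild type and 1197, 1426 and 1205 in *siw14*∆. The strains did not overlap, and its log2 fold change was 0.37 (standard error 0.106, adjusted p = 0.0355 by edgeR). Without wild-type replicate 2 the value was 0.30 and no longer passed (adjusted p = 0.0526 by edgeR).

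The largest fall among the called members was that of *eno102*, a second enolase gene of the genome. It had 61.4, 35.0 and 49.0 normalized counts in wild type and 18.4, 11.8 and 23.3 in *siw14*∆. The strains did not overlap, and the log2 fold change was -1.44 (standard error 0.337, adjusted p = 0.0244 by edgeR). Without wild-type replicate 1 it was -1.22 and did not pass (adjusted p = 0.0544 by edgeR). Its level was below the minimum of 100 in both strains. A noncoding gene of the count table overlaps 79.2% of its span on the opposite strand.

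*dak2*, which encodes a dihydroxyacetone kinase of glycerol use, had 947, 422 and 680.4 normalized counts in wild type and 378, 455 and 366 in *siw14*∆. Wild-type replicate 2 lay within the *siw14*∆ range. The log2 fold change was -0.77 (standard error 0.235, adjusted p = 0.0417 by edgeR), and -1.03 without that replicate (adjusted p = 0.00358 by edgeR). Without wild-type replicate 1 it was -0.45 and without replicate 3 -0.74, and neither passed (adjusted p = 0.138 and 0.0901 by edgeR).

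SPAC750.01 had the largest fitted difference of the 45, -2.82 on the log2 scale (standard error 0.946, adjusted p = 0.0542 by edgeR), and did not pass. It rested on wild-type replicate 2. Without that library the value was -0.62 (adjusted p = 0.425 by edgeR), and it passed without wild-type replicate 1 (-3.28, adjusted p = 0.0408 by edgeR) or replicate 3 (-3.25, adjusted p = 0.0481 by edgeR).

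Of 19 transporter loci, 13 were kept, none rose and 1 fell, beside 16.7% of all loci called higher and 4.99% lower. *nrg1*, annotated as an amino-acid permease and the innermost member at the right end of chromosome II, had 954, 517 and 836 normalized counts in wild type and 503, 513 and 426 in *siw14*∆. The lowest wild-type library exceeded the highest *siw14*∆ library only narrowly. The log2 fold change was -0.68 (standard error 0.194, adjusted p = 0.0362 by edgeR), and -0.90 without wild-type replicate 2. It did not pass without wild-type replicate 1, at -0.48 (adjusted p = 0.121 by edgeR), or replicate 3, at -0.57 (adjusted p = 0.102 by edgeR).

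The most abundant transporter gene, *cat1*, had 3719, 3794 and 3971 normalized counts in wild type and 3401, 3490.5 and 3357 in *siw14*∆. Its strains did not overlap, but it did not pass (adjusted p = 0.153 by edgeR). *put4* was at 1239.7 ± 54.3 and 1336 ± 147 (SD, n = 3 each), and *nhe1* at 1854 ± 80.9 and 1736 ± 128 (SD, n = 3 each). The strains overlapped for both, and neither passed. The sulfate transporter gene *sul2* had a log2 fold change of -0.32 that did not pass (adjusted p = 0.166 by edgeR). It did pass without wild-type replicate 2, at -0.51 (adjusted p = 0.00890 by edgeR).

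The fluoride exporter genes *fex1* and *fex2*, copies at 92.6% identity on different chromosomes, had higher levels in every *siw14*∆ library than in any wild-type library. *fex1* had 45.0, 43.3 and 48.0 normalized counts against 59.8, 53.7 and 51.6. *fex2* had 55.9, 73.1 and 67.8 against 81.9, 86.5 and 86.0. Neither passed, with log2 fold changes of 0.28 and 0.37 (adjusted p = 0.368 and 0.187 by edgeR). The hexose transporter gene *ght7* was at 17.3 ± 2.72 and 15.4 ± 4.18 normalized counts (SD, n = 3 each), with overlapping libraries.

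Both transcription factor genes of the group were kept and neither passed. *grt1* had 71.3, 61.8 and 72.0 normalized counts in wild type and 38.6, 42.8 and 52.6 in *siw14*∆. The strains did not overlap, and the log2 fold change was -0.61 (standard error 0.229, adjusted p = 0.0720 by edgeR). SPBC1348.12 had 21.9, 40.2 and 19.8 against 38.6, 46.5 and 48.6, with 1 wild-type library inside the *siw14*∆ range. Its log2 fold change was 0.70 (adjusted p = 0.118 by edgeR), and without that library, wild-type replicate 2, it was 1.08 and passed (adjusted p = 0.0235 by edgeR).

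Of the remaining members, *aes1*, annotated as a protein of the phenazine biosynthesis family, fell. It had 920.4, 621 and 733 normalized counts in wild type and 459, 506 and 515 in *siw14*∆. The strains did not overlap, and the log2 fold change was -0.62 (standard error 0.146, adjusted p = 0.0250 by edgeR). The sterol deacetylase gene *say1* had 103, 63.9 and 93.9 normalized counts in wild type and 80.1, 38.3 and 55.7 in *siw14*∆, which overlap. Its log2 fold change of -0.58 did not pass (adjusted p = 0.155 by edgeR). The catechol methyltransferase gene *cmt2* had at least 17.5 normalized counts in each wild-type library and at most 16.6 in each *siw14*∆ library and did not pass either.

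The interior genes were not alike. SPBPB7E8.02, which encodes a PSP1 family protein, had 1303, 872 and 1023 normalized counts in wild type and 646, 747 and 683 in *siw14*∆. It fell without overlap, with a change of -0.62 on the log2 scale (standard error 0.142, adjusted p = 0.0237 by edgeR). Its neighbour SPBPB7E8.01 had 8660.1, 15238 and 8593 against 10209, 10487 and 14654. The strains overlapped and the log2 fold change was 0.12 (adjusted p = 0.691 by edgeR). Without wild-type replicate 2 it was 0.45 and passed (adjusted p = 0.0453 by edgeR). With both set aside, 43 end members remained, 5 called higher and 4 lower.

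**Figure D4:**
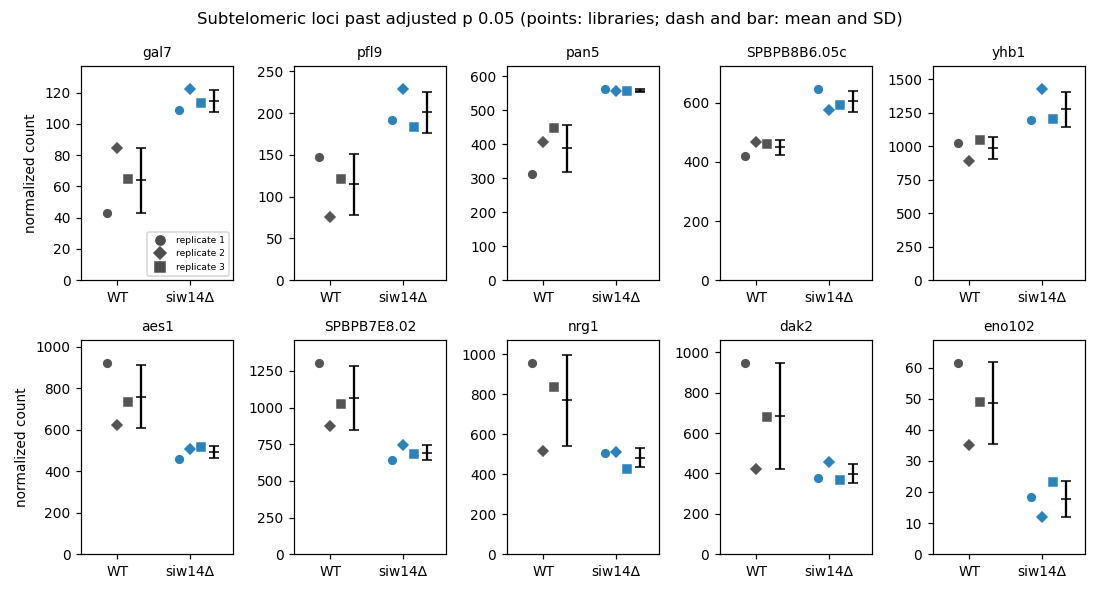
Normalized counts of the 10 members past an adjusted p of 0.05, in each of the 6 libraries, with the mean and SD of each strain (n = 3); every axis starts at 0 and marker shape gives the replicate. The upper row holds the 5 that rose and the lower row the 5 that fell, and wild-type replicate 2 (dark diamonds) is the lowest wild-type library at each gene that fell.

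At all 5 members that fell, the value of wild-type replicate 2 was closer to the *siw14*∆ mean than to that of the remaining wild-type cultures. The summed levels of stress and starvation markers were also lowest in that library among the wild-type cultures. The summed normalized count of 12 stress markers was 84649, 45635 and 74812 in wild type and 53339, 44720 and 52807 in *siw14*∆. In wild-type replicate 1, *sod1* and *gpd1* held 31996 and 16931 of this sum. Of the 12, 2 fell (*hsp9* and *gst2*) and none rose. For this list and the next, the test called 16.7% of all loci kept higher and 4.99% lower. *hsp9* was at 2874 normalized counts in wild-type replicate 2, near its *siw14*∆ range of 2205 to 3036. *gst2* was at 1611, nearer to the other wild-type values of 1861 and 1728. *hsp16*, which was not called, was at 236 in that replicate, below its *siw14*∆ range of 506 to 889. Of 15 markers of nitrogen starvation and mating, 13 matched the table, 3 fell (*ste11*, *mei2* and *isp6*) and *fus1* rose. Their sum was 15378, 9761 and 13146 in wild type and 10131, 9441 and 11253 in *siw14*∆. The part of these conditions in the changes of the subtelomeric genes was not tested.

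The factors that silence or protect chromosome ends were all expressed. Of 38 such genes, each kept by the filter, 17 (44.7%) rose and none fell, with 0.40 as their median log2 fold change. Over all loci the test called 16.7% higher and 4.99% lower. Among those that rose were *swi6* at 0.57 (adjusted p = 0.0235), and the shelterin genes *taz1* at 0.54 (adjusted p = 0.0235), *rap1* at 0.72 (adjusted p = 0.0235) and *pot1* at 0.53 (adjusted p = 0.0384), all on the log2 scale by edgeR. The shelterin genes *poz1* and *tpz1* rose as well, while *ccq1*, at 0.15, did not pass (adjusted p = 0.325 by edgeR). The methyltransferase gene *clr4* had a log2 fold change of 0.13 and did not pass (adjusted p = 0.438 by edgeR). Nor did the deacetylase gene *clr3*, at -0.23 (adjusted p = 0.146 by edgeR). With the trend over abundance taken out, 0 of the 38 passed and their median was 0.19, and without *siw14*∆ replicate 2 or replicate 3 again 0 passed. DESeq2 called 18 higher and 1 lower, and with the GC trend taken out edgeR called 13 higher and 3 lower. Without *siw14*∆ replicate 1 it called 8 higher and without wild-type replicate 3, 11 higher. Whether these RNA levels bear on the subtelomeric genes was not tested.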

How the data were processed

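The RNA-seq compared 3 wild-type with 3 *siw14*∆ cultures. Per the labels and methods, stranded poly(A)+ libraries were read as 51-base pairs, mapped to ASM294v2 with HISAT2 2.1.0 and counted over exons with HTSeq 0.10.0. The counts deposited by the authors are raw, with 1 column per library. Another 5 lines name no gene and were left out of totals and tests (31.6% to 35.8% of the counts in the *siw14*∆ columns, where alone they are filled). A deposited DESeq2 comparison, with fold changes and p-values, was not used.

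After removal of low loci by filterByExpr, 5774 of 6988 loci were scaled by TMM and tested with edgeR 4.0.16 (glmQLFit, then glmQLFTest, in R 4.3.3), adjusted by Benjamini-Hochberg. Normalized counts are TMM-scaled to the mean library. RPKM uses exon lengths of ASM294v3, in which 6836 IDs and all 122 members matched. That build is not the authors', so no coordinates or sequences are given. Copies were found with blastn. Alternatives were limma 3.58.1 (voom), DESeq2 1.42.0 and its size factors, library totals, other count filters, other criteria, a replicate block, loess trends (span 0.3) over abundance and, added after seeing the data, over GC content, and each library left out.

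In simulated data of 5739 loci, edgeR recovered 47.8% of 67 loci changed 1.5-fold, 79.1% of 67 changed 2-fold and all 63 changed 4-fold, and called 0.271% of unchanged ones. The changed loci were drawn at random from all loci kept. Counts were drawn from the fitted means and dispersions, with no trend over abundance or GC content put in. These rates therefore need not hold for the real libraries. Of the 45 members kept, 23 were below 100 normalized counts in both strains, and recovery among the members was not measured. All replicate pairs differed beyond sampling noise. Members, lists and the naming rule were chosen with earlier results of these data known. Members with a symbol, called, among the 15 highest, repeated or at 0 were to be named.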

Additional observations from a re-analysis of the deposited data

How the results depend on the processing

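The 10 calls kept their direction under every alternative run, and 55 of their 150 values no longer passed 0.05. With the abundance trend taken out, 0 members rose or fell, and 0 of all loci rose and 1 fell. With a GC trend taken out (added after seeing the data), 3 members rose and 11 fell, and 940 of all loci fell. Library totals gave 3 members lower and 31 of all loci lower, a filter of 1 count in any library 8 members lower. DESeq2 called 712 of all loci lower, its size factors in edgeR 495, and the replicate block 156, with 5 members higher and 4 lower. The numbers did not pair the samples, since deviations of same-numbered libraries correlated at -0.26, 0.17 and -0.16. Leaving out 1 library gave 0 to 7 members higher and 0 to 6 lower, and 0 to 1204 and 1 to 717 of all loci.

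The median log2 fold change of the members was -0.26 by DESeq2, 0.039 with library totals, -0.22 and -0.075 with the looser and stricter filter, -0.25 without the abundance trend, and -0.11 to 0.0011 with 1 library left out. By the study criteria, a 1.5-fold limit gave 2 higher and 4 lower, no minimum 1 lower, library totals 1 higher, and leaving out 1 library 0 to 1 each. The median wild-type level was 0.548 RPKM over loci with a count, 1.73 over mostly unique ones and 0.186 to 0.331 with 1 library left out. The log2 fold change of SPBPB7E8.01 ranged from -0.071 (without *siw14*∆ replicate 3, a change of sign) to 0.45 with 1 library left out. Where a value moved, the cause was not tested.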
